A study of Mus musculus with 4 samples.

Results

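Genes that copy DNA and make its nucleotides were followed in cloned mouse Th1 cells, which are CD4 helper T cells that secrete interferon gamma. The list held 39 genes chosen by their role in replication, nucleotide synthesis or entry into S phase, the part of the cell cycle in which DNA is copied. Of these, 37 had a probe set of their own on the array, a group of oligonucleotides that reports on 1 gene, and each gene was read from its brightest probe set. Pole had none, and the probe sets for Tyms name its pseudogene as well, so both lie outside the list. Another 6 (Mcm6, Prim1, Prim2, Pole2, Rfc4 and Ccne2) were below the filter on low values, which left 31 of the 5583 genes tested. The 2 anergic arrays held RNA of the clone made anergic, that is unresponsive, with a plate-bound antibody to CD3, the part of the T cell receptor that passes on its signal. The 2 control arrays held RNA of the normal quiescent clone. The labels give no strain, age, dose or time. Both groups are a clone and its treated form, so they stand for cloned cells in culture, and the labels name no separate cultures for arrays 1 and 2. A p-value here thus sets a difference against the spread of these arrays alone, technical or not. In bulk RNA, fewer cells in S phase and less RNA of a gene in each cell cannot be told apart.

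Replication starts where the origin recognition complex and Cdc6 load the ring-shaped MCM helicase onto DNA. Cdc45 joins the helicase as it fires, and polymerase alpha with primase lays down primers that polymerases delta and epsilon extend. The clamp Pcna, loaded by replication factor C, holds the polymerase on DNA, and Fen1 and Lig1 trim and seal the fragments of the lagging strand. In T cells these genes are known to be switched on by E2F transcription factors when a resting cell is driven into the cycle, while an anergic T cell divides poorly when it meets its antigen again.

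Because many of these genes are textbook E2F targets, the stretch of DNA just before the start site is shown for 4 of them. Pola1, Rfc3 and Cdk2 have an E2F word before the start, and Pold4, the gene with the largest difference in the list, has none. Each is the 150 bases before the start in RefSeq on GRCm38.p6. They are chrX:93632156-93632305 on the minus strand for Pola1, chr5:151651209-151651358 on the minus strand for Rfc3, chr10:128705052-128705201 on the minus strand for Cdk2, and chr19:4231743-4231892 on the plus strand for Pold4. Capitals mark an E2F word (TTTGGCGC, TTTCGCGC, TTTCCCGC or TTTGCCGC) or the CCAAT box, read on both strands.
Pola1: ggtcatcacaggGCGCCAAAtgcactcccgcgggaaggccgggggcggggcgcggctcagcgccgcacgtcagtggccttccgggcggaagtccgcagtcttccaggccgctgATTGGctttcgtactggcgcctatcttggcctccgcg
Rfc3: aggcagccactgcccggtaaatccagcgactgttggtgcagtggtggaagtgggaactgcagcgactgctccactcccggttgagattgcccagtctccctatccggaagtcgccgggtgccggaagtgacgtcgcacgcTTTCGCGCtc
Cdk2: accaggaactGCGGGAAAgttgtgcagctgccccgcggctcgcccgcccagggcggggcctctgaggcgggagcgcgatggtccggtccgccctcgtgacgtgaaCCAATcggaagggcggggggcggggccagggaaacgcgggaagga
Pold4: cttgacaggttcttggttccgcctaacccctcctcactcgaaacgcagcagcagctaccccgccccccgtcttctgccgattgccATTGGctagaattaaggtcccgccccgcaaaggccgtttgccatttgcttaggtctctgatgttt

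A rise of Pold4, a subunit of DNA polymerase delta, was the single difference in the list that passed the test. Among the 31 genes of the list that were tested, Pola1 and Lig1 were the lowest relative to control cells. They were at 0.344 and 0.382 times the control mean, and neither passed. The untested Prim1 and Ccne2, below the filter, were at 0.251 and 0.261 times the control mean. Of 31 genes tested, 1 rose, 0 fell and 30 did not pass in limma with Benjamini-Hochberg adjustment over all genes at a threshold of 0.05. Over all 5583 genes, 2.17% passed in either direction, 1.33% higher and 0.842% lower. At an unadjusted p under 0.05, 6 of the 31 genes were lower (19.4%) and 2 higher, against 6.39% lower and 6.32% higher over all genes. The count of 6 lower stayed 6 under quantile normalization and became 3 when each array was centred on its median. On 10 of the 31 genes (32.3%) both anergic arrays lay below both control arrays, against 24% of all genes, and on 3 both lay above, against 17.2%. Together 13 of 31 genes had groups that did not overlap, against 41.2% of all genes. The median log2 difference, anergic minus control, was -0.12 over the 31 genes and -0.09 over all genes. With the filter at the 60th percentile these medians were -0.39 and -0.06. They were -0.36 and -0.15 without anergic array 2, -0.34 and -0.14 without control array 1, and -0.07 and 0.01 without anergic array 1. By sign, 20 of the 31 were lower (64.5%), against 58.1% of all genes. The count became 16 of 31, with a median of -0.01, both under quantile normalization and when each array was centred on its median, which moved the median of all genes to -0.03 and 0.02. With 2 arrays against 2, the smallest two-sided p of an exact permutation test is 0.333, and every call rests on the spread that limma shares between genes.

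**Figure D1:**
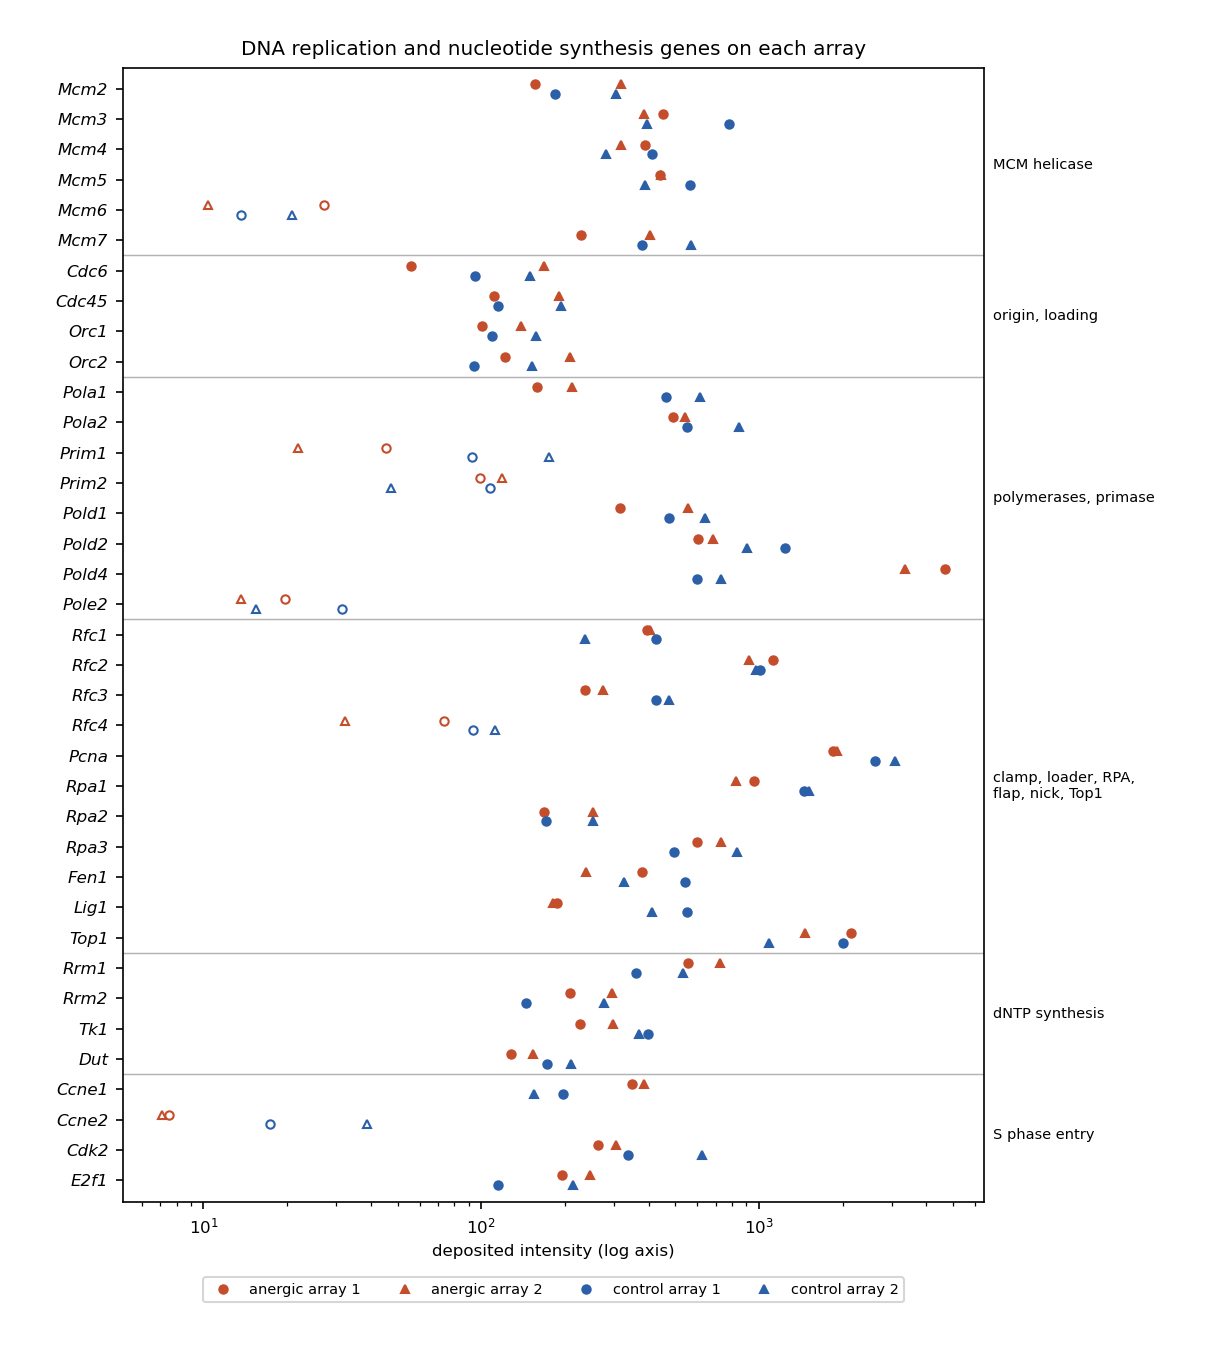
Deposited intensity (log axis) of the 37 genes with a probe set of their own, by role, with the anergic arrays in red above the control arrays in blue, circles for array 1 and triangles for array 2. Open symbols mark the 6 genes below the filter; the anergic arrays of Pold4 stand far to the right of its control arrays, and most other genes overlap.

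The arrays of a group differed from each other about as much as the groups did. Over the 31 genes the median absolute log2 difference was 0.291 between the anergic arrays and 0.509 between the control arrays. It lay between 0.39 and 0.647 for the 4 pairs of an anergic with a control array. Over all genes tested it was 0.326 between the anergic arrays and 0.366 between the control arrays. Anergic array 1 was the lowest of the 4 arrays for 15 of the 31 genes, and control array 2 the highest for 12. The control arrays differed by over 1.5-fold for 13 of the 31 genes, and the anergic arrays for 8. Neither these counts nor those of the lowest and highest array were made over all genes. The median intensity of the 31 genes was 315 and 318 on anergic arrays 1 and 2, against 425 and 394 on control arrays 1 and 2. Over all genes tested the medians were 483 and 512 on the anergic arrays and 505 and 543 on the control arrays. Over the whole array, with probe sets below the filter, they were 134.1 and 175.8 on the anergic arrays and 146.5 and 191.2 on the control arrays.

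All 12 measured T cell and Th1 markers were above the filter, with single values between 218.8 and 11877.6. The 12 measured T cell and Th1 markers summed to 44787.1 to 47378.6 on the anergic arrays and 45761.2 to 53356.8 on the control arrays. In limma 2 of the 12 fell and 0 rose, against 0.842% lower and 1.33% higher over all genes. On 3 of the 12 both anergic arrays lay below both control arrays, and on 4 both lay above. Over all genes these shares were 24% and 17.2%. Ifngr1, a chain of the interferon gamma receptor, was at 813.5 and 366 on the anergic arrays, against 2091.5 and 2065.3 on the control arrays (log2 difference -1.87 ± 0.35, SE, adjusted p = 0.0239). Cxcr3, a chemokine receptor of Th1 cells, was at 218.8 and 336.6 on the anergic arrays, against 835.3 and 867.1 on the control arrays (-1.55 ± 0.31, SE, adjusted p = 0.0334). In both genes the anergic arrays lay far under the control arrays. Ifng, the interferon gamma gene, went the other way and did not pass. It was at 3868.5 and 4864.3 on the anergic arrays, against 2131.9 and 2649.1 on the control arrays (0.86 ± 0.24, SE, limma adjusted p = 0.132). Markers of B cells, granulocytes and erythroid cells were dim, and their 8, 10 and 4 measured genes had a highest single value of 331.3, 297.5 and 359.3. None of them passed the test. Of 10 macrophage and dendritic cell markers, the lysosomal gene Cd68 rose (515 ± 24 in anergic and 81.2 ± 14.4 in control cells, SD, n = 2 each, limma adjusted p = 0.0105). Of the other 9, 3 were above the filter and none of them passed. These were Cd14, at 684.4 and 858.2 on the anergic and 764.1 and 931.9 on the control arrays, Csf1r, at 117.6 and 344.1 on the anergic and 170.6 and 232.9 on the control arrays, and Itgax. The remaining 6, among them Itgam, Adgre1, Mrc1 and Lyz2, were below the filter. Lyz2 was the lower in anergic cells, at 11.7 and 11.4 on the anergic and 129.1 and 73.3 on the control arrays. Fcgr3, at 58.5 and 79.3 against 27.1 and 32.1, and Adgre1, at 36.4 and 36.9 against 24 and 20.2, were the higher. The 10 genes summed to 1580.5 to 2134.6 on the anergic and 1317.3 to 1713.7 on the control arrays. Of 8 fibroblast and stroma markers, which summed to 8823.2 to 10765 on the anergic and 12662.6 to 15269.3 on the control arrays, Thy1, which mouse T cells also make, held most of the sum. Col1a2 averaged 1300 ± 402.3 in anergic and 1327.2 ± 120.3 in control cells (SD, n = 2 each). The part of other cell types in the differences below was not tested.

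The DNA polymerases held the widest differences of the list, in both directions. Pold4, the smallest subunit of polymerase delta, was at 4664.5 and 3346.3 on the anergic arrays, against 596.2 and 727.7 on the control arrays. Both anergic arrays thus stood far above both control arrays, and the mean was 6.05 times as high. The log2 difference was 2.53 ± 0.27 (SE, limma adjusted p = 0.00164), the 28th highest of 5583 genes. It passed in the 9 alternative settings that kept all 4 arrays, between 2.33 and 2.64. With 1 array left out it lay between 2.29 and 2.77, in fits that assume the lone array of a group to vary like the other group. Pold4 has a single probe set, so no further probe set bears on this value.

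The other subunits of polymerase delta had smaller differences, and none of them passed. Pold2, the regulatory B subunit, was at 601.3 and 682.5 on the anergic arrays, against 1238.5 and 908.2 on the control arrays. The groups did not overlap, with a log2 difference of -0.70 ± 0.28 (SE), but it missed the threshold (adjusted p = 0.315). Its probe set carries the suffix r, which marks a set designed under relaxed rules. Pold1, the catalytic subunit, was at 314.7 and 555.3 on the anergic arrays and 474.4 and 640.5 on the control arrays. These values overlap (log2 difference -0.37 ± 0.35, SE, adjusted p = 0.773). A dimmer second probe set of Pold1 had a log2 difference of -0.01 ± 0.54 (SE). Pold3, an accessory subunit from the list of further fork genes, was at 380.6 and 850 on the anergic arrays and 374.6 and 749.4 on the control arrays. Array 2 was the higher in both groups, and the log2 difference was 0.10 ± 0.43 (SE, adjusted p = 0.965). Whether Pold4 differs from the other subunits was not tested as such.

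Pola1, the catalytic subunit of polymerase alpha, had the lowest log2 difference of the 31 genes of the list that were tested. It was at 158.2 and 211.8 on the anergic arrays, against 463.2 and 611.3 on the control arrays. Both anergic arrays lay under the lower control array, and the anergic mean was 0.344 times the control mean. The log2 difference was -1.40 ± 0.34 (SE), the 63rd lowest of 5583 genes, and it missed the threshold (limma adjusted p = 0.0784). Without control array 1 the log2 difference was -1.59. The spread in that fit comes from the anergic arrays and the other genes, since 1 control array is left. Pola2, the accessory subunit, was at 488.8 and 543.1 on the anergic arrays and 551.9 and 850.2 on the control arrays, with a log2 difference of -0.39 ± 0.31 (SE, adjusted p = 0.702). Its groups lay side by side without overlap, and the gap between them was small. On a dimmer second probe set of Pola2 the groups overlap (log2 difference -0.16 ± 0.40, SE).

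The primase genes and Pole2 were too dim to test. Prim1, the catalytic primase subunit, had values of 45.3 and 21.9 on the anergic arrays and 92.7 and 175.1 on the control arrays. Both anergic values were the lower. Prim2, the large primase subunit, had 99 and 118.4 on the anergic arrays and 107.9 and 47.3 on the control arrays, which overlap. Pole2, a subunit of polymerase epsilon, stayed at 31.6 or below on every array.

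**Figure D2:**
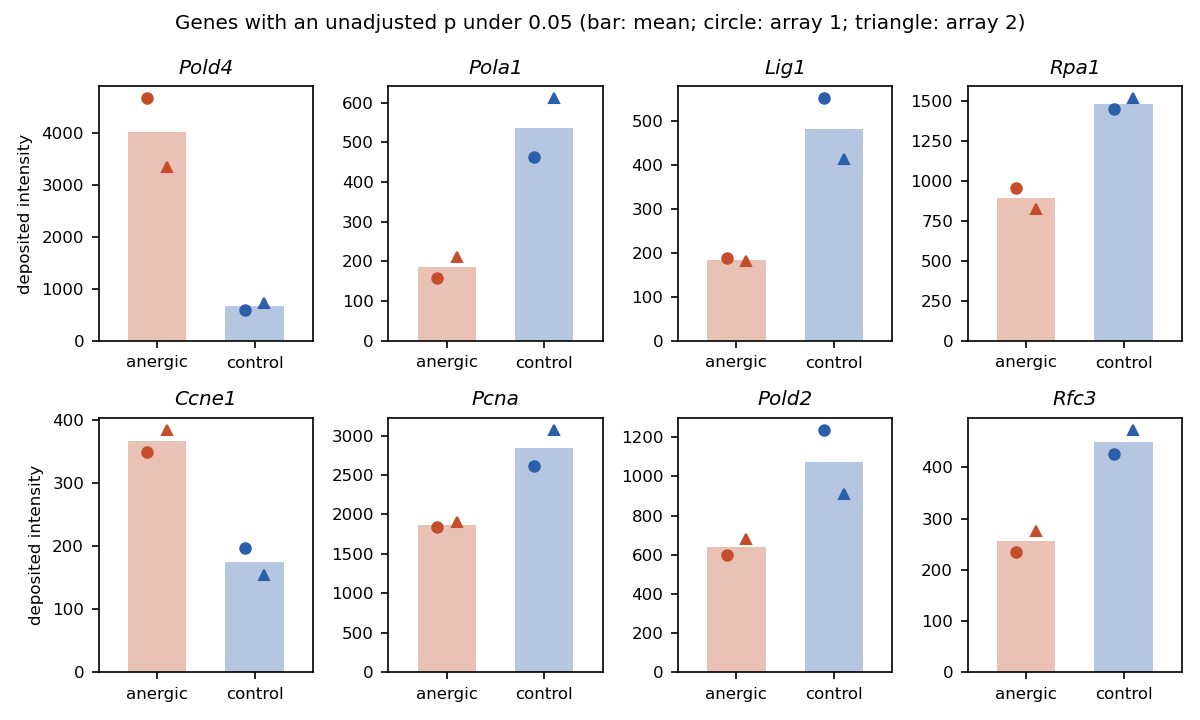
Deposited intensity of the 8 genes with an unadjusted p under 0.05, with a bar for the mean of each group, a circle for array 1 and a triangle for array 2. In each panel the anergic and control arrays do not overlap; Pold4 alone passed after adjustment over all genes.

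Of 10 tested genes for the clamp, its loader, single-strand binding, ligation and unwinding, 0 passed in limma, and 4 had an unadjusted p under 0.05, all of them lower. Those 4 are 40% of the 10, against 6.39% of all genes. In the whole list of 31 genes the count of such lower genes was 6, and 3 when each array was centred on its median. By sign 6 of 10 were lower (60%, against 58.1% of all genes), and 5 of 10 under quantile normalization or centring. Lig1, the ligase that seals lagging-strand fragments, was at 188 and 180.6 on the anergic arrays, against 552 and 412.9 on the control arrays. The anergic arrays nearly coincided and lay far under both control arrays. The anergic mean was 0.382 times the control mean, with a log2 difference of -1.25 ± 0.34 (SE, limma adjusted p = 0.113), the 87th lowest of all genes tested. A dimmer second probe set of Lig1 had 38.7 and 120 on the anergic arrays and 97.7 and 148.8 on the control arrays, with a log2 difference of -0.58 ± 0.55 (SE). There the groups overlap.

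Rpa1, the large subunit of the protein that coats single-stranded DNA, was at 958.4 and 822.6 on the anergic arrays, against 1448.5 and 1517.1 on the control arrays. The gap between the groups was wider than the spread within either, with a log2 difference of -0.72 ± 0.25 (SE, limma adjusted p = 0.242). Its smaller partners overlapped between the groups. Rpa2 was at 168.3 and 253.3 on the anergic arrays and 171 and 252.8 on the control arrays, a log2 difference of -0.01 ± 0.40 (SE). Rpa3 was at 595.5 and 732 on the anergic arrays, inside the range of 495.8 and 831.1 on the control arrays. Whether Rpa1 differs from its partners was not tested.

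Pcna, the sliding clamp, was the brightest of the list in control cells. It was at 1840 and 1901.9 on the anergic arrays, against 2615 and 3074.4 on the control arrays. The groups did not overlap, and the log2 difference was -0.59 ± 0.23 (SE, limma adjusted p = 0.313). Of the clamp loader subunits, Rfc3 was at 235.8 and 274.9 on the anergic arrays, against 425.1 and 473.5 on the control arrays. That difference of -0.75 ± 0.32 on the log2 scale also separated the groups (SE, adjusted p = 0.359). Rfc2, by contrast, was at 1123.1 and 922.1 on the anergic arrays and 1005.2 and 972.2 on the control arrays, which overlap (log2 difference 0.04 ± 0.26, SE).

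The remaining genes of this kind varied within groups. Rfc1, the large clamp loader subunit, had 394.6 and 405.1 on the anergic arrays and 426.4 and 236.4 on the control arrays, so the control arrays alone span its anergic values. Fen1, the flap nuclease, had 378.9 and 239 on the anergic arrays and 539.9 and 326.5 on the control arrays. Top1, which relieves the twist ahead of the fork, had 2134.8 and 1460.2 on the anergic arrays and 2013.4 and 1085.5 on the control arrays. In both genes array 1 was the higher in each group. Rfc4 was below the filter, with 73.2 and 32.2 on the anergic arrays and 93.2 and 112.2 on the control arrays.

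The MCM helicase genes showed no difference that passed the test. In limma 0 of the 5 tested passed, and 0 had an unadjusted p under 0.05. Mcm7 had the largest log2 difference, -0.57 ± 0.37 (SE, adjusted p = 0.615), with 228 and 403.5 on the anergic arrays and 380.1 and 567 on the control arrays. Mcm5 was at 438.3 and 444.8 on the anergic arrays, between the control values of 564.8 and 388.3. Mcm3 was at 451.1 and 386.4 on the anergic arrays and 781.8 and 393.6 on the control arrays, so its log2 difference of -0.39 ± 0.36 (SE) came with a wide spread among controls. Its probe set carries the suffix s, which marks probes shared by related transcripts. A dimmer second probe set of Mcm3, without that suffix, had 226.9 and 140.1 on the anergic and 400.4 and 203.3 on the control arrays. Its log2 difference was -0.60 ± 0.43 (SE), and the groups overlap. Mcm2 and Mcm4 had log2 differences of -0.07 ± 0.43 and 0.04 ± 0.34 (SE), and Mcm6 stayed at 27.1 or below on every array. By sign 4 of 5 were lower (80%, against 58.1% of all genes). The count became 3 of 5 under quantile normalization and 2 of 5 with centring, where Mcm2 and Mcm5 turned.

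Genes that mark and load origins were dim and overlapped between groups. Cdc45, a partner of the active helicase, was at 110.9 and 190.9 on the anergic arrays and 114.9 and 193.8 on the control arrays. The arrays of each number nearly coincided, and array 2 was the higher in both groups. Cdc6, the loading factor, had 55.7 and 167.6 on the anergic arrays and 94.6 and 149.6 on the control arrays. The origin recognition gene Orc2 had 121.3 and 208.7 on the anergic arrays and 94.4 and 152.6 on the control arrays. The log2 differences were 0.34 ± 0.46 for Orc2 and -0.12 ± 0.45 for Orc1 (SE). None of the 4 had an adjusted p under 0.877. By sign 3 of 4 were lower (75%, where 58.1% of all genes were), against 1 of 4 under quantile normalization and 2 of 4 with centring.

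The genes of deoxynucleotide synthesis split by sign, with 2 higher and 2 lower, and 0 of 4 passed (0 at an unadjusted p under 0.05 in limma). Rrm1, the large subunit of ribonucleotide reductase, was at 554.2 and 723.8 on the anergic arrays, against 361 and 531.3 on the control arrays. The anergic arrays were both higher, by a narrow gap, with a log2 difference of 0.50 ± 0.32 (SE, adjusted p = 0.598). Rrm1 turned to -0.07 with the mean of its probe sets, where its second probe set was at 48.3 or below on every array. Rrm2, the small subunit that S phase cells make, had 209 and 296.7 on the anergic arrays and 145.1 and 276.6 on the control arrays, which overlap.

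The salvage kinase gene Tk1 had 227.2 and 297.9 on the anergic arrays, against 397.3 and 370.6 on the control arrays. The groups did not overlap, and the log2 difference was -0.51 ± 0.33 (SE, adjusted p = 0.607). Dut, which clears dUTP, had 127.9 and 153 on the anergic arrays, against 173 and 209.6 on the control arrays (log2 difference -0.38 ± 0.40, SE). The probe sets that name Tyms, thymidylate synthase, together with its pseudogene had log2 differences of -0.24 ± 0.41 and -0.45 ± 0.36 (SE), and neither passed over all probe sets.

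Ccne1 was higher in anergic cells among the genes of S phase entry, short of the threshold. Ccne1, the cyclin that activates Cdk2 before S phase, was at 349.3 and 384.7 on the anergic arrays, against 196.6 and 154.5 on the control arrays. Both anergic arrays were well above both control arrays, and the mean was 2.09 times as high, with a log2 difference of 0.96 ± 0.35 (SE, limma adjusted p = 0.267). Its partner kinase Cdk2 was at 262.9 and 304.3 on the anergic arrays, against 336.7 and 623.1 on the control arrays. That placed the anergic arrays lower, with a log2 difference of -0.65 ± 0.36 (SE, adjusted p = 0.534). E2f1, the transcription factor gene, had 196 and 246.4 on the anergic arrays and 115 and 214.2 on the control arrays, which overlap. Its probe set has the suffix f, a family of similar sequences. A second probe set of E2f1 without that suffix had a log2 difference of 0.39 ± 0.47 (SE), against 0.41 ± 0.42 for the first. Ccne2 was near background, with 7.5 and 7.1 on the anergic arrays and 17.3 and 38.7 on the control arrays.

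**Figure D3:**
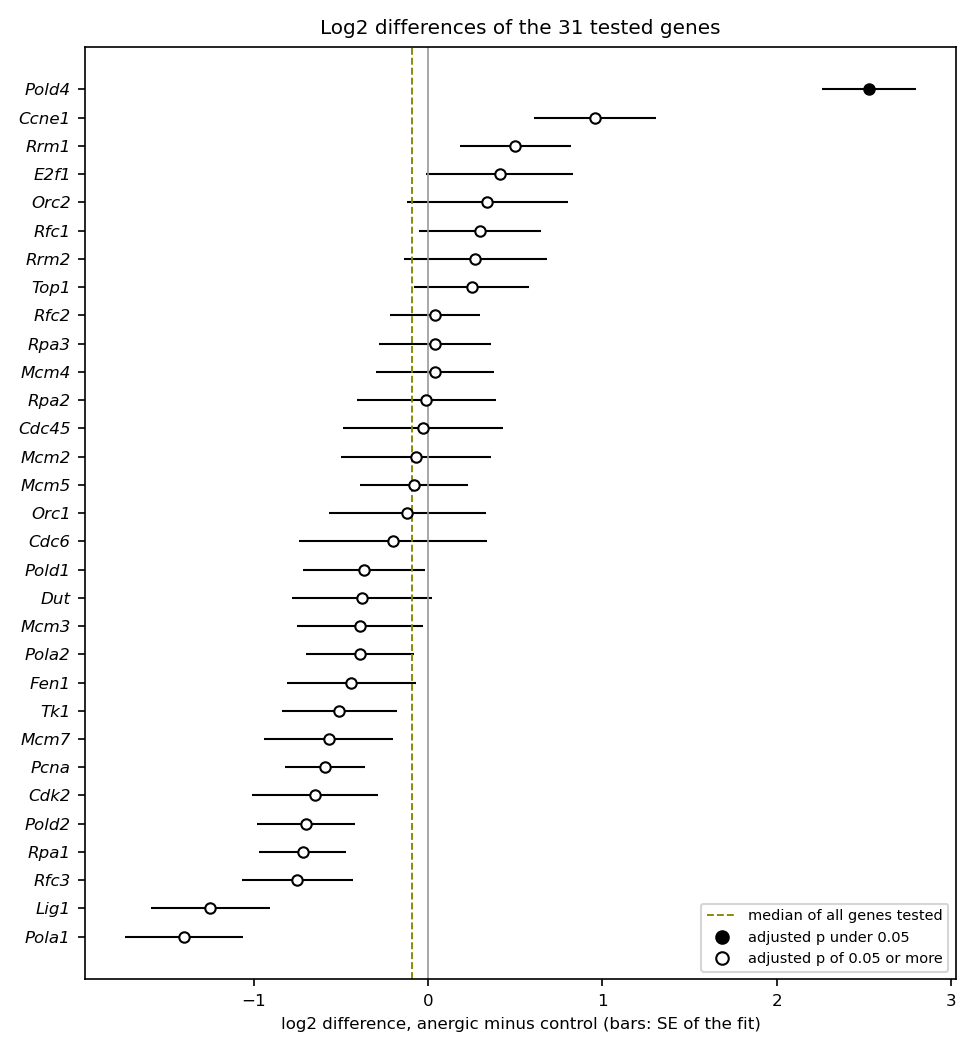
Log2 difference, anergic minus control, of the 31 genes tested, with bars for the SE of the fit and a dashed line at the median of all genes tested (-0.09). Pold4 at 2.53 is the only filled point, which marks an adjusted p under 0.05; Lig1 and Pola1 are lowest at -1.25 and -1.40.

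**Figure D4:**
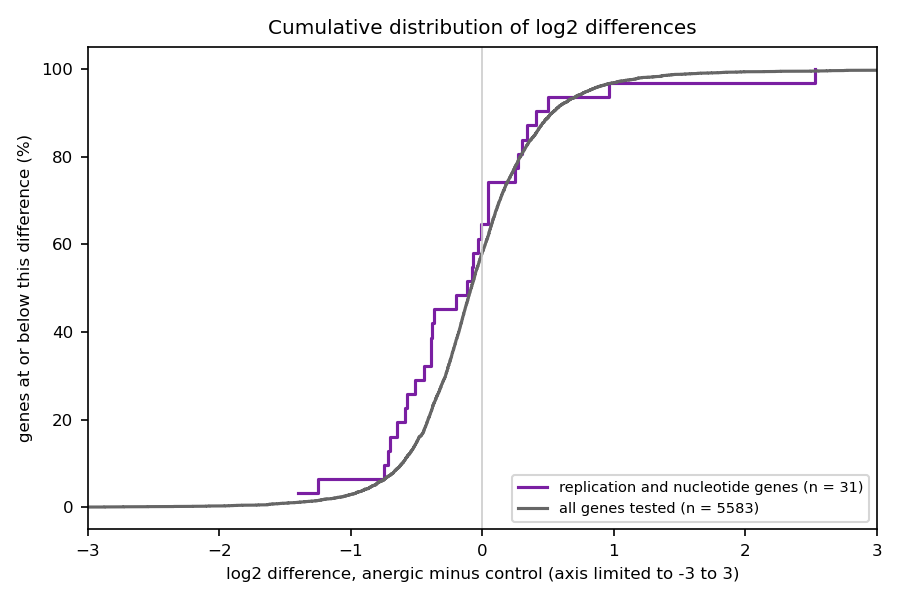
Share of genes (%) at or below each log2 difference, for the 31 replication and nucleotide genes and for all 5583 genes tested. The curve of the 31 genes lies left of that of all genes between about -1 and 0 and close to it near the medians of -0.12 and -0.09.

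Further genes of the same processes, listed by role, gave no call in limma with all 4 arrays. Leaving out 1 array gave calls in some of these lists, in fits with 1 array left in a group. Of 25 other fork and licensing genes tested, 0 passed and 2 had an unadjusted p under 0.05, both lower (8%, against 6.39% of all genes). By sign 21 of the 25 were lower (84%, against 58.1% of all genes), 20 under quantile normalization and 20 with centring. On 13 (52%) both anergic arrays lay below both control arrays, against 24% of all genes. Their median log2 difference was -0.44, and -0.41 and -0.33 under the same 2 scalings. The lowest p among them belonged to Top2b, a topoisomerase (-0.92 ± 0.31, SE, adjusted p = 0.219), Pole4, a polymerase epsilon subunit (-1.03 ± 0.39), and the fork protection gene Tipin (-1.06 ± 0.50). Of 28 other nucleotide synthesis and salvage genes 0 passed, with 5 at an unadjusted p under 0.05. Of these 5, 3 were lower (10.7% of the 28, against 6.39% of all genes). Uck2, a uridine and cytidine kinase, was at 463.3 and 467.7 on the anergic arrays, against 1009.7 and 1030 on the control arrays. The arrays of each group nearly coincided, and the log2 difference of -1.08 ± 0.27 (SE) had an adjusted p of 0.0823. Impdh1, of guanine nucleotide synthesis, had -1.12 ± 0.32. Samhd1, which breaks down deoxynucleotides, had 0.82 ± 0.32.

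Regulators of the E2F pathway included genes with higher values in anergic cells. Of 13 tested 0 passed in limma, and 4 had an unadjusted p under 0.05, 3 of them higher. Over all genes 12.7% had an unadjusted p under 0.05, 6.32% higher and 6.39% lower. Cdkn1a, the p21 inhibitor of cyclin E and Cdk2, was at 1327.8 and 1075.3 on the anergic arrays, against 645.5 and 471.9 on the control arrays (log2 difference 1.07 ± 0.28, SE, adjusted p = 0.108). Rbl1, the p107 relative of the retinoblastoma protein, was at 550.5 and 485.5 on the anergic arrays, against 169.5 and 237.4 on the control arrays (1.25 ± 0.33, SE, adjusted p = 0.111). Both genes separated the groups with room to spare. Myb had a log2 difference of 1.35 ± 0.43 (SE), with anergic array 1 at 1403 and anergic array 2 at 497.9, against 300 and 321.9 on the control arrays. Of 10 mitosis markers tested 0 passed, with 2 at an unadjusted p under 0.05, both lower (20%, against 6.39% of all genes). These were Hmgb2, a chromatin protein gene (-1.48 ± 0.33, SE, adjusted p = 0.0581), and the kinesin gene Kif22 (-1.21 ± 0.32). The probe sets of both carry the suffix r of sets designed under relaxed rules. Cenpa, the centromere histone, had 0.75 ± 0.38. Mki67, the proliferation marker, averaged 288 in anergic and 358 in control cells.

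The genes with an E2F word in the promoter window lay on the low side of the list. The window runs from 250 bases before to 50 after the start, as RefSeq gives it on GRCm38.p6, and 34 of the 39 genes had at least 1. An E2F word stood in it for 12 of these 34 genes, against 2.6% of the 27025 genes in the table (2.26% of 32851 windows). That table includes genes not tested here. Of the genes tested that have a window, 227 had an E2F word and 4301 had none, a larger share than in the table. The CCAAT box stood in 21 of the 34, against 41.1% of all genes. In Pola1 and Cdk2 the E2F word lies before the start, as printed above. Rfc3 has 1 before the start, printed above, and another from base 1 to base 8 after it, and in Lig1 the word lies 27 to 34 bases after the start. In Mcm5 and in Mcm6, 2 of the E2F words overlap each other, and in Mcm7 an E2F word shares a base with a CCAAT box. All 10 tested genes with an E2F word had a log2 difference below 0 (median -0.48, range -1.40 to -0.08). Of the 19 tested genes with a window and no such word, 10 were below 0 (median -0.01). The count of 10 was 9 under quantile normalization, where Orc1 turned, and 9 with centring, where Mcm5 turned. It was 7 without anergic array 1, 8 without control array 1 and 8 without control array 2. Across all genes tested, 59% of the 227 with an E2F word and 57.6% of the 4301 without were below 0, with medians of -0.11 and -0.08. Outside the list, 57.1% of the 217 genes with an E2F word were below 0, with a median of -0.08. In 30.9% of those 217 both anergic arrays lay below both control arrays, against 23.9% of the 4301 without the word. The search was made with the differences known, and a matching word is a description, not a bound site. Only exact matches were counted, so a gene without the word is not shown to lack an E2F site.

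**Figure D5:**
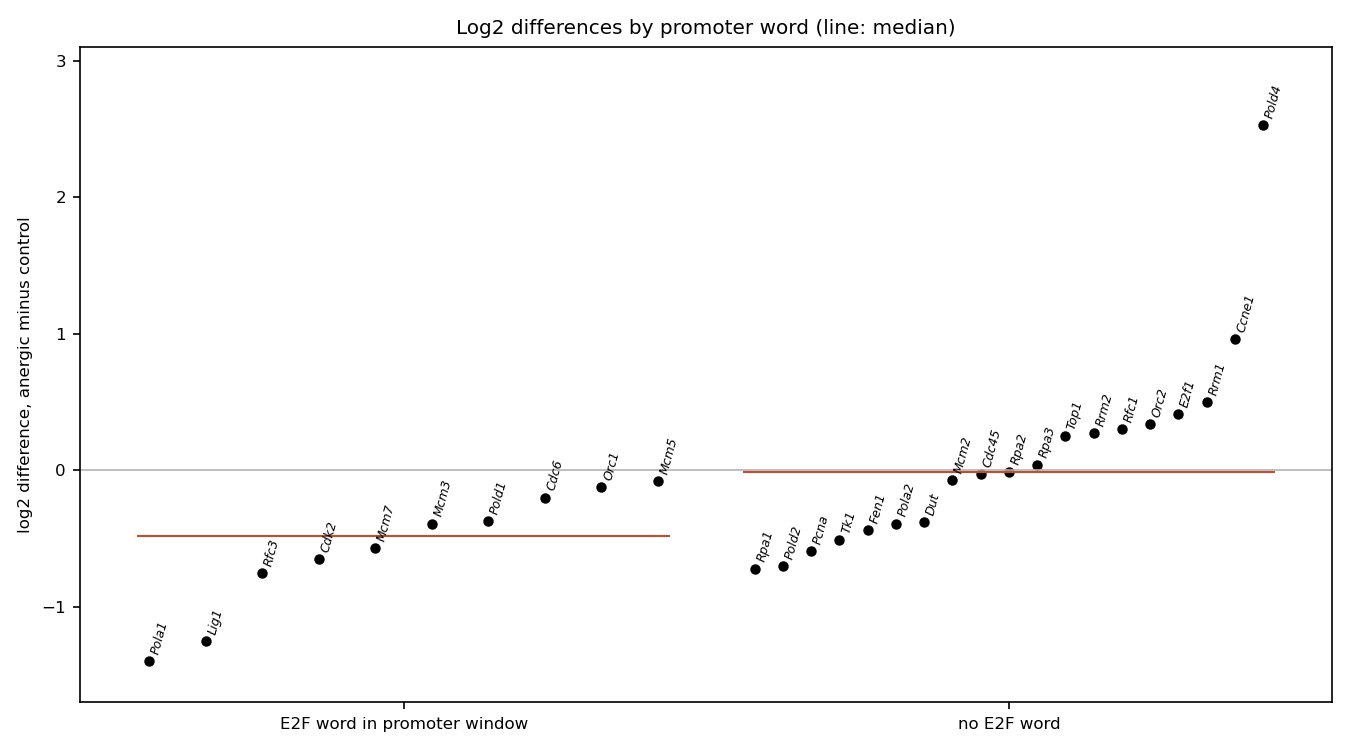
Log2 difference, anergic minus control, of the 29 tested genes with a promoter window in RefSeq, split by whether the window holds an E2F word, with a line at each median (-0.48 with and -0.01 without). All 10 genes with the word are below 0; Orc1 turned under quantile normalization and Mcm5 with centring.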

How the data were processed

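For 2 anergic and 2 control arrays, Trizol RNA was turned into biotinylated cRNA, per the labels' protocols. The authors deposited 1 intensity on a linear scale for each of 12488 probe sets per array. How they scanned, background-corrected and summarised the probes is not stated in those labels. A 2% trimmed mean of 500.3 on every array shows that the values were scaled before deposit, and that scale was kept. The number of arrays, 2 a group, limits the precision.

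Gene names came from GEO's annotation of the platform. Of 12422 apart from 66 controls, 10833 had 1 gene symbol, 396 several and 1193 were unlisted. Gene IDs of 10817 matched RefSeq on GRCm38.p6 and no symbol changed. Values were transformed as log2(value + 29.15), the median over arrays of the 20th percentile, which understates the change of dim genes. Genes whose brightest probe set had a mean log2 value above the 40th percentile of probe sets were tested with limma 3.58.1 in R 4.3.3 (intensity trend, two-sided, Benjamini-Hochberg over all genes). Each fit had 2 residual and 7.76 prior degrees of freedom, and the script was tested on simulated data.

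The genes and lists were chosen with earlier results of these data known. Given with all arrays are genes with an unadjusted p under 0.05 and the 2 brightest of each role, and for each further list up to 3 genes with the smallest p. Some dimmer genes, Pold3, Mki67 and the named cell type markers were added after their values were seen. Alternatives changed the pseudocount, filter, normalization, probe sets, intensity trend and replicate number, and left out each array. The promoter search used RefSeq windows.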

Additional observations from a re-analysis of the deposited data

How the results depend on the processing

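The rise of Pold4 passed in limma under every alternative that kept all 4 arrays (adjusted p of 0.019 or below). In the 4 that leave out an array, its log2 difference lay between 2.29 and 2.77. There 1 array of a group is left, is assumed to vary like the other group, and adds nothing to the spread. The count of genes lower, 0, stayed 0 under the alternatives that kept all 4 arrays, apart from the block. When an array was left out, the log2 difference of Pola1 lay between -1.59 and -1.21. The median log2 difference of the list, -0.12, was -0.07 with the pseudocount at the array median, -0.19 with no filter (37 genes), -0.39 with the filter at the 60th percentile (21 genes, against -0.06 over all genes), -0.01 with quantile normalization and -0.01 with centring. It lay between -0.36 and -0.07 when an array was left out: -0.07 without anergic array 1, -0.36 without anergic array 2, -0.34 without control array 1 and -0.13 without control array 2, where all genes had 0.01, -0.15, -0.14 and -0.03. The cause of these shifts was not tested.

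The genes that changed sign in at least 1 alternative had log2 differences between -0.39 (Mcm3) and 0.50 (Rrm1). None of these passed either way in limma. Dut and E2f1 lie within that range and kept their sign. Under quantile normalization Mcm2 was at 0.03, Cdc45 at 0.09, Orc1 at 0.01 and Rpa2 at 0.08. With centring Mcm2 was at 0.04, Mcm5 at 0.03, Cdc45 at 0.08 and Rpa2 at 0.10. With the mean of the probe sets Mcm5 was at 0.13, Orc2 at -0.06 and Rrm1 at -0.07. Leaving out 1 array turned 14 genes at least once. Their ranges were -0.52 to 0.38 for Mcm2, -0.86 to 0.08 for Mcm3, -0.21 to 0.29 for Mcm4, -0.34 to 0.17 for Mcm5, -0.81 to 0.40 for Cdc6, -0.36 to 0.30 for Cdc45 and -0.34 to 0.09 for Orc1. They were -0.76 to 0.01 for Pold1, -0.09 to 0.69 for Rfc1, -0.10 to 0.18 for Rfc2, -0.27 to 0.25 for Rpa2, -0.32 to 0.39 for Rpa3, -0.13 to 0.68 for Rrm2 and -0.19 to 0.69 for Top1.

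The titles number the arrays 1 and 2 in both groups, and nothing in the labels says that a number marks a shared culture or day. The deviations of like-numbered arrays from their group means correlated at 0.523 over all genes. With the replicate number as a block, limma called 720 of all 5583 genes instead of 121. Of the 31 genes in the list it called 2 higher (Pold4 and Ccne1) instead of 1 and 6 lower instead of 0. The 6 were Pola1 (adjusted p = 0.000491), Lig1 (0.0019), Rpa1 (0.0207), Pold2 (0.0364), Rfc3 (0.0396) and Pcna (0.0452). In the further lists the fit without the block called 0. The block gave 3 lower of 25 fork genes, and 1 higher and 3 lower of 28 nucleotide genes. It gave 3 higher and 1 lower of 13 E2F regulators, and 2 lower of 10 mitosis markers. Leaving out an array leaves 1 array in a group, and the calls it gave in some of these lists are not counted here.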
